A study of Mus musculus with 16 samples.

Results

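The comparison of 25 nM beta-estradiol with the doses below it asked which genes moved first as GATA1 was let into the nucleus of G1E-ER4 cells. It took in 6 of the 16 libraries of the series, picked by their labelled dose: the 2 replicates at 25 nM on one side, and on the other the 2 replicates at 0 nM and the 2 at 12.5 nM, pooled as a baseline of 4. G1E-ER4 is a mouse erythroid precursor line that makes no GATA1 of its own and instead expresses a fusion of GATA1 with the estrogen receptor's hormone-binding domain, and all 3 groups share that background. The cells grew in IMDM with fetal bovine serum, antibiotics, monothioglycerol, murine stem cell factor and erythropoietin, with beta-estradiol as the agent at 12.5 and 25 nM and a control at 0 nM. The labels do not say how long the cells were exposed. The 6 libraries hold no cells that lack the fusion, so an effect of beta-estradiol itself cannot be told apart from one of nuclear GATA1, and a single line limits the comparison to that line. Nothing in the labels says that replicates were separate cultures, so p-values measure the spread between these libraries, which may be technical.

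GATA1 is a zinc finger transcription factor that binds GATA sequences, often together with TAL1, LMO2 and LDB1, and recruits FOG1. It turns on genes for heme, globin and the red cell membrane as progenitors mature and takes over sites held by GATA2, whose gene it represses. In this line an unliganded fusion is held outside the nucleus, and estradiol releases it to enter and act on these targets.

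The 6 libraries held 14030743 to 15802510 counts each. In a principal component analysis of these 6, the first component took 31.9% of the variance and placed the 0 nM libraries at -8.44 and -6.77, the 12.5 nM libraries at -2.46 and 0.68, and the 25 nM libraries at 7.97 and 9.03. The 10 tested erythroid markers were all detected and summed to 2571 to 2722 CPM (read counts relative to the scaled depth of the library) at baseline and 3064 to 3113 CPM at 25 nM. Tfrc was the largest part of that sum, at 1033 to 1170 CPM and then 1230 and 1249 CPM. Tal1 (51.6 to 55.9, then 54.4 and 54.8 CPM) and Epor (154 to 166, then 163 and 167 CPM) overlapped between the groups. In the other markers both 25 nM libraries lay above the baseline. The share of counts in globin genes was 0.151% to 0.173% at baseline and 0.223% to 0.235% at 25 nM. Rn45s, which stands for the ribosomal RNA precursor, took a share of 8.94% to 9.61% at baseline and of 10.1% to 10.9% at 25 nM, and its part in the results was not tested.

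At 25 nM the response was narrow and leaned upward. Of 10080 genes tested, 255 were higher (2.53% of those tested) and 77 lower (0.764%), and 3.29% were called in all. A gene was called where edgeR's quasi-likelihood test gave a Benjamini-Hochberg adjusted p under 0.05. At an unadjusted p under 0.05 there were 1398 genes. Changes were small: the median fold was 1.18 among the higher genes and 1.19 among the lower ones, and 11 higher and 4 lower genes reached 2-fold. Both 25 nM libraries lay above all 4 baseline libraries for 251 of the 255 higher genes, against 12.4% of all genes tested, and below all 4 for 76 of the 77 lower genes, against 10.1%. Since the same libraries gave the calls, this separation is a description. An exact two-sided permutation test of 2 libraries against 4 cannot go below p = 0.0667, so the calls rest on the model, whose spread is estimated over all 16 libraries. Fitted to the 6 libraries alone it gave 231 higher and 118 lower genes, of which 204 and 74 were among those above. The upward lean depended on scaling. With libraries scaled by trimmed mean of M values (TMM), 76.8% of the calls were higher, and with scaling by total counts 149 genes were higher and 189 lower, or 44.1% higher. Without 25 nM replicate 1 the counts were 153 higher and 39 lower, and without 25 nM replicate 2 they were 130 and 19. The count of lower genes was 40 without 0 nM replicate 2 and 42 without 12.5 nM replicate 1.

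**Figure D1:**
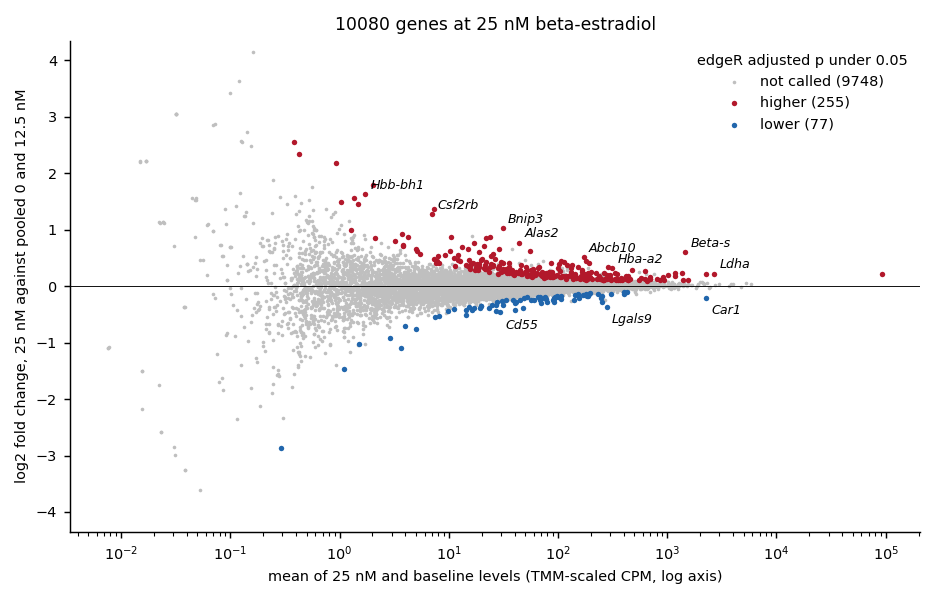
Each point is 1 of 10080 genes, with its mean TMM-scaled CPM on a log axis and its log2 fold change at 25 nM against the pooled 0 and 12.5 nM libraries on the vertical axis. Red points are the 255 genes called higher and blue points the 77 called lower; most called genes lie close to the line of no change.

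Genes of heme synthesis were among the first to rise. Of 16 genes on that list, 8 were higher and 0 lower, with a median log2 fold change of 0.12 against 0.01 over all genes tested. Over all genes tested 2.53% were higher and 0.764% lower, the shares beside which each list count is to be read. Alas2, the erythroid form of the enzyme that starts heme synthesis (chromosome X, 150547375 to 150570638, plus strand, GRCm38), stood at 32.9 and 32.8 CPM at 0 nM, 30.5 and 34.7 CPM at 12.5 nM, and 54.6 and 57.3 CPM at 25 nM. Its 4 baseline libraries lay close together and both 25 nM libraries lay well above them, a log2 fold change of 0.77 ± 0.04 (adjusted p = 6.05e-18). The error after ± is the log2 fold change divided by the root of its F statistic. Abcb10, a transporter of the mitochondrial inner membrane needed for heme production, took another course: 126 and 126 CPM at 0 nM, 160 and 158 CPM at 12.5 nM, and 196 and 207 CPM at 25 nM. It had already risen at 12.5 nM against 0 nM, by 0.33 on the log2 scale (adjusted p = 1.2e-08), and its change against the pooled baseline was 0.51 ± 0.03 (adjusted p = 6.05e-18). When the 6 libraries were fitted with 0 and 12.5 nM as 1 group, that step within the baseline counted as spread and Abcb10 was no longer called (adjusted p = 0.225).

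The other 6 heme genes rose by less. Tmem14c, which helps porphyrins across the mitochondrial membrane, was at 388 to 439 CPM at baseline and 449 and 479 CPM at 25 nM (log2 fold change 0.18 ± 0.03, adjusted p = 2.12e-04). Alad, the porphobilinogen synthase, was at 641 to 685 CPM and then 710 and 727 CPM (0.13 ± 0.02, adjusted p = 2.64e-04). For both genes the 25 nM libraries lay above every baseline library. Ppox, Fam210b, Slc25a37, the mitochondrial iron importer, and Slc25a38, the mitochondrial glycine carrier, rose by 0.20 to 0.43 on the log2 scale. Without 25 nM replicate 2 the number of heme genes called was 3, and Alad (adjusted p = 0.0512) and Tmem14c (0.0566) were among those lost; without 25 nM replicate 1 it was 5.

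Globin genes rose together. Of 7 tested genes on the list of globins and their chaperone, 5 were higher and 0 lower, with a median log2 fold change of 0.85. Hba-a2, an adult alpha-globin, was at 277, 281, 282 and 282 CPM in the 4 baseline libraries and at 345 and 353 CPM at 25 nM, a change of 0.31 ± 0.03 (adjusted p = 2.12e-12). Beta-s, an adult beta-globin, went from 1081 and 1074 CPM at 0 nM through 1215 and 1290 CPM at 12.5 nM to 1700 and 1830 CPM at 25 nM (0.60 ± 0.05, adjusted p = 2.40e-04). Between 0 and 12.5 nM the alpha-globin differed by 0.01 on the log2 scale (adjusted p = 0.96), while both beta-globin libraries at 12.5 nM lay above both at 0 nM without passing the test (adjusted p = 0.34). Hbb-b1, its near copy, had 13.2 to 18.3 CPM at baseline and 26.6 and 29.7 CPM at 25 nM (0.85 ± 0.14, adjusted p = 0.0119). That call was lost without 25 nM replicate 1 (adjusted p = 0.0555) or replicate 2 (0.120). Hbb-bh1, an embryonic beta-type globin, had few reads at 0.378 to 1.64 CPM and rose to 2.03 and 3.10 CPM (1.63 ± 0.24, adjusted p = 1.06e-05). Reads of near-identical globin copies can be split or dropped in counting, so single members of the alpha and beta pairs are uncertain. The list had 3 called members without 25 nM replicate 1. In bulk RNA more cells making a transcript and more of it per cell cannot be told apart, which holds for every gene here.

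The 250 bases before the start of 4 of these genes are shown because they differ in whether they hold the letters that GATA factors bind. The sequences are from RefSeq on GRCm38.p6 and run 5′ to 3′ on the strand of the gene, and capitals mark the GATA motif on either strand, taken as AGATAA with its variant ending in G (AGATAG) and the forms that begin with T (TGATAA with the variant TGATAG). The regions are chrX:150547167-150547416 (plus strand) for Alas2, chr11:32296242-32296491 (plus) for Hba-a2, chr2:28621983-28622232 (minus) for Gfi1b, an erythroid repressor described further on, and chr8:123983123-123983372 (minus) for Abcb10.
Alas2: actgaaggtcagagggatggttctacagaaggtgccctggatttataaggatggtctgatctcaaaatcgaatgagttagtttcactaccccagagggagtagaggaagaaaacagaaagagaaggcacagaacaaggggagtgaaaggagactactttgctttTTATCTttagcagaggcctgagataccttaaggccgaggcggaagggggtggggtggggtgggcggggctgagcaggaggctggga
Hba-a2: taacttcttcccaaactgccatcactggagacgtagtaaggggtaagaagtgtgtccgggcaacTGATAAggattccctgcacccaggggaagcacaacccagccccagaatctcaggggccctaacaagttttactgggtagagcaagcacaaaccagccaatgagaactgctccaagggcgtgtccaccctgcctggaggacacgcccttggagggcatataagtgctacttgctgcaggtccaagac
Gfi1b: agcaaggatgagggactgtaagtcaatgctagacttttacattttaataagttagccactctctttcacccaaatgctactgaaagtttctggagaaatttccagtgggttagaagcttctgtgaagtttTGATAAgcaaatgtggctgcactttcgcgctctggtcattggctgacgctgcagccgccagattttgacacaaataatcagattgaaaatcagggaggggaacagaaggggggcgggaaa
Abcb10: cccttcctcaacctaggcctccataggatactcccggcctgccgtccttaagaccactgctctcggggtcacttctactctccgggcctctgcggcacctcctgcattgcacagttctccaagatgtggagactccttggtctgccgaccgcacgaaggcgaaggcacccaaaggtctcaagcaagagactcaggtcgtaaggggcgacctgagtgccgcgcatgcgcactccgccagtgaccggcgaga
The match begins 86 bases before the start in Alas2, 186 bases before it in Hba-a2 and 120 bases before it in Gfi1b. No such letters are in this window of Abcb10, which was also called higher. Over windows from 250 bases before to 50 after each start, such letters were found for 26.7% of the 206 higher genes with an entry, 18.6% of the 59 lower genes and 21.7% of the 7989 genes tested. On the lists of globins, heme, iron, membrane and erythroid transcription factors they were found for 11 of 25 higher genes (44.0%) and for 34 of all 69 tested members with an entry (49.3%).

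Genes of the red cell membrane and its skeleton rose as well. Of 27 tested members, 12 were higher and 0 lower, with a median log2 fold change of 0.13. Add2, the beta subunit of adducin that caps actin in the red cell skeleton, was at 247 and 242 CPM at 0 nM, 262 and 267 CPM at 12.5 nM and 321 and 327 CPM at 25 nM (0.35 ± 0.03, adjusted p = 6.31e-13). Sptb, the beta-spectrin of that skeleton, was at 230 to 260 CPM at baseline and 283 and 293 CPM at 25 nM (0.24 ± 0.03, adjusted p = 2.87e-08). In both genes the 25 nM libraries were clear of the baseline. Slc4a1, the band 3 anion exchanger, was the exception within the baseline: it was at 81.3 and 85.0 CPM at 0 nM, fell to 67.8 and 62.1 CPM at 12.5 nM, and stood at 101 and 95.0 CPM at 25 nM. The drop at 12.5 nM was -0.36 on the log2 scale (adjusted p = 2.5e-07), so that the change of 0.42 ± 0.04 against the pooled baseline (adjusted p = 1.63e-12) joined 0.24 against 0 nM and 0.59 against 12.5 nM. With the 6 libraries fitted and the baseline as 1 group, its adjusted p was 0.385. Epb4.9, Tmod3, Kel, Rhag, Kcnn4, Gypc, Trim10 and Epb4.1 were also higher, at 0.13 to 0.69. Trim10, at 0.14, kept its call in 4 of 15 alternative runs and was lost in the edgeR fit to the 6 libraries alone (adjusted p = 0.152). The list had 9 higher members with scaling by library size alone, and 9 with the baseline as 1 group of the 6 libraries. It had 6 when a gene had to pass against each of 0 and 12.5 nM.

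Of 13 iron genes 3 were higher and 0 lower, against 2.53% higher and 0.764% lower over all genes tested. Ftl1, the ferritin light chain that stores iron, was at 2041 and 2018 CPM at 0 nM, 2110 and 2189 CPM at 12.5 nM, and 2370 and 2477 CPM at 25 nM (0.21 ± 0.02, adjusted p = 8.31e-09). Steap3, which reduces iron in the endosome, was at 286 to 320 CPM and then 358 and 354 CPM (0.23 ± 0.03, adjusted p = 3.48e-08). Tfrc, the transferrin receptor, was at 1033 to 1170 CPM and then 1230 and 1249 CPM (0.18 ± 0.02, adjusted p = 4.57e-08). Steap3 and Tfrc had both risen by 12.5 nM, by 0.15 on the log2 scale each, and the median of the list was 0.05.

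Neither the transcripts of GATA1 itself nor those of its usual counterpart passed the test. Gata1 transcripts stood at 755, 667, 667 and 703 CPM at baseline and 848 and 766 CPM at 25 nM, a log2 difference of 0.21 ± 0.06 that did not pass (adjusted p = 0.131). Both 25 nM libraries were above all 4 others, and Gata1 was called without 0 nM replicate 1 (adjusted p = 7.85e-04) or without 0 nM replicate 2 (0.0331), with no filter on low counts and by DESeq2. The table has a single Gata1 entry, in which the introduced fusion and the gene of the cell are not set apart. Gata2, the GATA factor of progenitors, was at 120 to 133 CPM at baseline and 126 and 115 CPM at 25 nM, with a difference of -0.04 ± 0.08 (adjusted p = 0.896) and libraries that overlapped. Its difference was 0.02 without 25 nM replicate 2. Kit, the receptor of stem cell factor, was at 500 to 522 CPM and then 500 and 483 CPM (-0.07 ± 0.03, adjusted p = 0.266). With scaling by library size alone edgeR called Kit lower (-0.10, adjusted p = 0.0285).

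Among 23 erythroid transcription factors 5 were higher and 0 lower, with a median of 0.11. Gfi1b, a repressor that partners GATA1 in erythroid cells, was at 189 and 186 CPM at 0 nM, 221 and 223 CPM at 12.5 nM and 237 and 243 CPM at 25 nM (0.24 ± 0.03, adjusted p = 3.48e-07). Most of its rise was already there at 12.5 nM, which exceeded 0 nM by 0.24 (adjusted p = 5.0e-05), and the step from 12.5 to 25 nM, 0.11, did not pass (adjusted p = 0.14). Mafk, a small MAF protein that pairs with NF-E2, was at 54.0 to 64.1 CPM and then 74.6 and 75.9 CPM (0.33 ± 0.05, adjusted p = 5.20e-06). Klf13, Foxo3 and Stat5b, at 0.19 to 0.25, were each lost without at least 1 of the 25 nM libraries (adjusted p = 0.0777 for Klf13 without replicate 2, 0.533 for Foxo3 without replicate 2 and 0.259 for Stat5b without replicate 1), and the list had 3 called members without replicate 1. Of 19 genes of erythropoietin receptor signalling 4 were higher and 0 lower. Pim1, a kinase induced by STAT5, was at 87.6 to 92.5 CPM in the 4 baseline libraries and at 125 and 117 CPM at 25 nM (0.44 ± 0.04, adjusted p = 6.31e-13). Bcl2l1, which encodes the survival protein BCL-XL, went from 50.3 and 50.6 CPM through 56.3 and 55.7 CPM to 64.7 and 63.3 CPM (0.27 ± 0.04, adjusted p = 3.18e-05). The number called on this list was 2 without 25 nM replicate 1.

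By size, the 12 named genes highest at 25 nM were Bnip3, Btg2, Hbb-b1, Alas2, Mboat2, Ache, Ddx26b, Ube2l6, Cdc25b, Beta-s, Ano1 and Dhrs11, taken from genes that reached 20 CPM on average on the higher side. They differed in what they did at 12.5 nM against 0 nM. Btg2, Ddx26b, Ube2l6 and Ano1 were called higher there. The others did not pass: the difference was -0.01, -0.06 and -0.10 on the log2 scale in Alas2, Ache and Bnip3 (adjusted p = 0.87 to 0.99), and 0.14 to 0.44 in Cdc25b, Beta-s, Dhrs11, Hbb-b1 and Mboat2 (adjusted p = 0.0815 to 0.72). Ache, acetylcholinesterase, which red cells carry on their surface, was at 14.6 to 16.8 CPM in the baseline libraries and at 26.1 and 26.2 CPM at 25 nM (0.71 ± 0.07, adjusted p = 1.17e-10). Btg2, an antiproliferative gene of the BTG family, stepped up at each dose, from 13.7 and 14.2 CPM to 19.8 and 19.8 CPM and then 29.7 and 31.0 CPM (0.87 ± 0.06, adjusted p = 1.66e-14). Ube2l6, a ubiquitin and ISG15 conjugating enzyme, did the same, from 37.5 and 38.7 CPM through 50.0 and 49.3 CPM to 64.0 and 69.3 CPM (0.62 ± 0.05, adjusted p = 1.12e-13). Mboat2, a lysophospholipid acyltransferase, went from 9.996 and 11.4 CPM through 13.6 and 15.5 CPM to 22.1 and 20.2 CPM (0.76 ± 0.09, adjusted p = 5.90e-08). Cdc25b, a phosphatase that activates cyclin-dependent kinases, was at 14.1 to 16.5 CPM and then 24.6 and 21.3 CPM (0.61 ± 0.07, adjusted p = 6.19e-09). Ddx26b, Ano1, a calcium-activated chloride channel, and Dhrs11, a short-chain dehydrogenase, rose by 0.65, 0.56 and 0.54. Among these 12, Hbb-b1 was lost without either 25 nM library, and Beta-s (adjusted p = 0.0759) and Ube2l6 were lost with the baseline as 1 group of the 6 libraries.

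**Figure D2:**
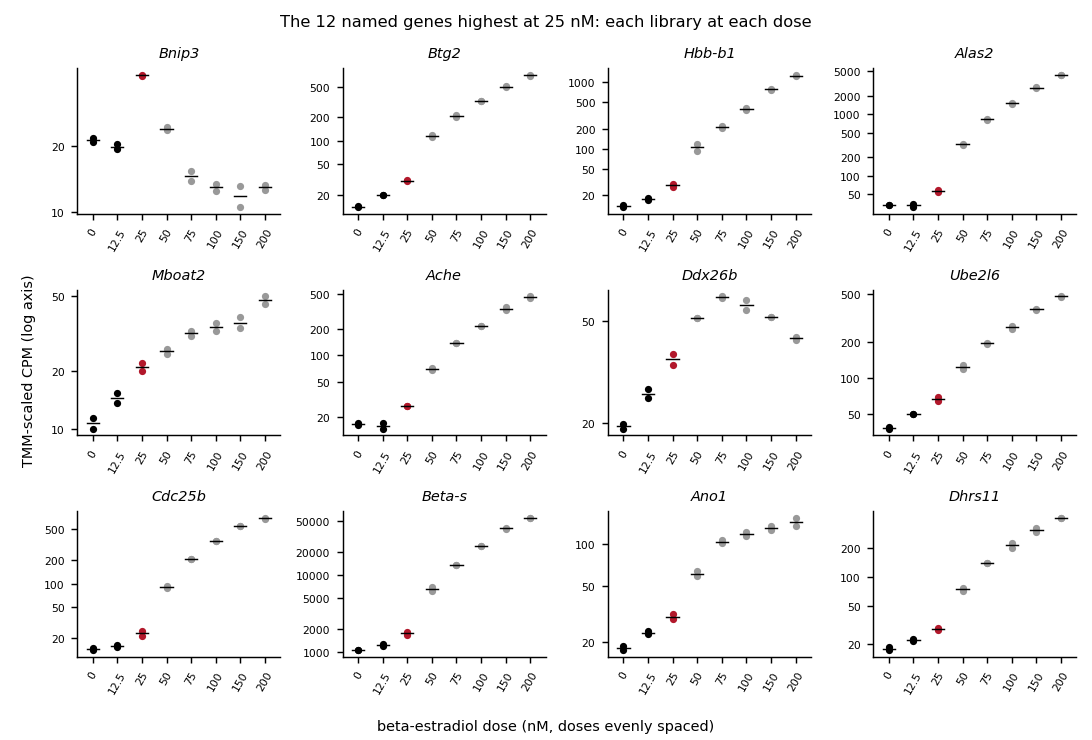
Each panel is 1 of the 12 named genes highest at 25 nM, with TMM-scaled CPM on a log axis against beta-estradiol dose in nM, doses evenly spaced. Points are single libraries, black at 0 and 12.5 nM, red at 25 nM and grey above, and bars are means of 2; Bnip3 alone of these panels returns close to its baseline at 50 nM, at 24.0 CPM.

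Genes of glycolysis and of the response to low oxygen also rose. Cells short of oxygen stabilise HIF factors, which bind DNA at a short core and raise glycolytic enzymes and mitochondrial clearance genes. Of 23 tested glycolysis genes 11 were higher and 0 lower, with a median of 0.22, and of 20 tested low-oxygen genes 11 were higher and 0 lower, with a median of 0.22. Slc2a3, a glucose transporter, is on both lists and had the largest log2 fold change of their called members, from few reads: it was at 0.245 and 1.07 CPM at 0 nM, 0.559 and 1.29 CPM at 12.5 nM and 1.85 and 2.50 CPM at 25 nM (1.46 ± 0.30, adjusted p = 2.07e-03). Both 25 nM libraries lay above the 4 others. Bnip3, a receptor on mitochondria that marks them for autophagy (chromosome 7, 138890836 to 138909519, minus strand), was at 20.8 and 21.6 CPM at 0 nM, 20.4 and 19.3 CPM at 12.5 nM and 42.0 and 41.6 CPM at 25 nM (1.03 ± 0.08, adjusted p = 1.12e-13). No baseline library came near the 25 nM pair, and at 50 nM the mean was 24.0 CPM and at 200 nM 13.0 CPM.

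Among the glycolytic enzymes Pfkl, a liver-type phosphofructokinase, moved most firmly, from 143 and 139 CPM through 161 and 165 CPM to 202 and 212 CPM (0.45 ± 0.04, adjusted p = 1.18e-12). Ldha, lactate dehydrogenase A, went from 2355 and 2431 CPM through 2572 and 2608 CPM to 2887 and 2925 CPM (0.22 ± 0.02, adjusted p = 1.04e-09). Pkm, pyruvate kinase, was flat in the baseline at 563 to 585 CPM and then at 685 and 692 CPM (0.26 ± 0.03, adjusted p = 1.11e-09). Aldoa, aldolase A, was at 1208 to 1296 CPM and then 1454 and 1463 CPM (0.23 ± 0.02, adjusted p = 1.11e-09). In these 4 enzymes both 25 nM libraries were above all 4 baseline libraries. Hk1, Gpi1, Pfkp, Tpi1, Gapdh and Pgk1 rose by 0.14 to 0.32. On the low-oxygen list Ero1l, an oxidase of the endoplasmic reticulum, was at 110 to 129 CPM and then 148 and 158 CPM (0.38 ± 0.04, adjusted p = 1.20e-09), and Fam162a, a mitochondrial protein, was at 100 to 109 CPM and then 134 and 137 CPM (0.38 ± 0.04, adjusted p = 2.06e-08). Selenbp1, a selenium-binding protein, went from 154 and 151 CPM through 178 and 177 CPM to 212 and 228 CPM (0.42 ± 0.03, adjusted p = 1.12e-13), and its mean reached 699.6 CPM at 200 nM. Pdk1, Higd1a, Kdm3a, P4ha1, Kdm4b and Mif rose by 0.11 to 0.40. Ndufa4l2, picked after its values were seen and on neither list, was at 3.39 to 4.54 CPM at baseline and 11.5 and 9.64 CPM at 25 nM (1.36 ± 0.15, adjusted p = 3.15e-09). It encodes a mitochondrial protein known to be induced in low oxygen. Oxygen in the cultures was not measured here, and Hif1a transcripts, at 102 to 114 CPM at baseline and 114 and 114 CPM at 25 nM, did not pass (adjusted p = 0.343). The low-oxygen list had 7 higher members by DESeq2, 7 with scaling by library size alone and 8 with the baseline as 1 group of the 6 libraries. It had 5 when a gene had to pass against each of 0 and 12.5 nM. Without 25 nM replicate 2 the low-oxygen list had 5 higher members.

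The 250 bases before the start of Bnip3 (chr7:138909507-138909756, minus strand) and of Ldha (chr7:46845554-46845803, plus strand) are shown because these genes were called firmly and hold the core letters of the HIF site several times. Capitals mark ACGTG or GCGTG on either strand, and overlapping matches run together. The stretch CACGTG is counted on each strand, so the matches given below outnumber the separate sites.
Bnip3: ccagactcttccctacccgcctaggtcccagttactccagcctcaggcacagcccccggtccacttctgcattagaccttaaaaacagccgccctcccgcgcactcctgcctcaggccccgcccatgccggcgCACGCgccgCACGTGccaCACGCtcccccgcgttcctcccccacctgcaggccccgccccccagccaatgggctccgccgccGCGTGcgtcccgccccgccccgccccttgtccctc
Ldha: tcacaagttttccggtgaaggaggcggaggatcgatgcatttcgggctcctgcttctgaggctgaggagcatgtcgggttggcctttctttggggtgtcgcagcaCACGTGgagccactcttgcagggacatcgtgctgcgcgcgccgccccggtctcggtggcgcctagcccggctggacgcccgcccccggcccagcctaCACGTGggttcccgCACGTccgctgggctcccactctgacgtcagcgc
Bnip3 has 5 matches, the farthest beginning 117 bases before the start and the nearest 35 bases before it, and Ldha has 5 in this window, from 145 to 34 bases before it. Ldha has 2 annotated starts, and the first is shown. The second had 2 matches from 250 bases before it to 50 after it. Pfkl, with a smaller adjusted p than Ldha, had 1 match in its 250 bases and is not shown. Letters this short are common. Over the window to 50 bases after the start they were found for 78.2% of the higher genes with an entry, 69.5% of the lower genes and 69.8% of all genes tested. They were found for 16 of 18 higher genes of the glycolysis and low-oxygen lists (88.9%) and for 34 of the 37 tested members with an entry (91.9%).

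**Figure D3:**
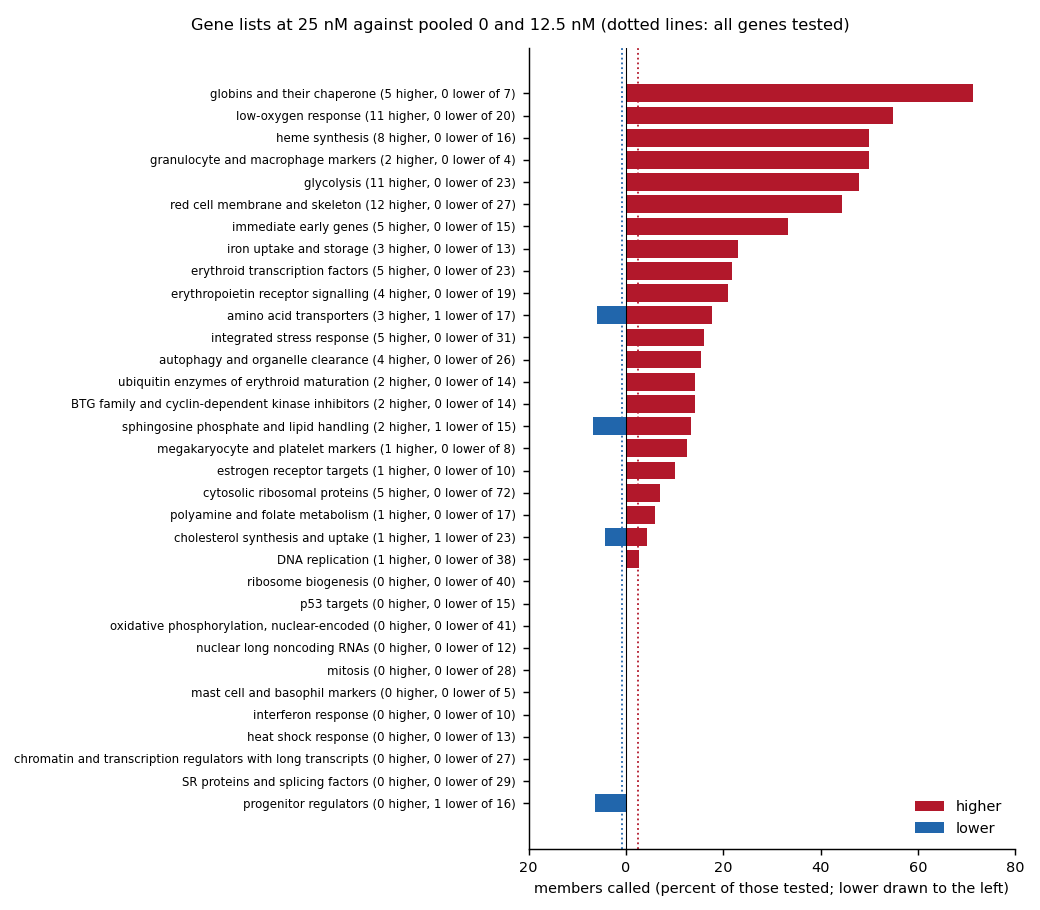
Bars give the percent of tested members called higher (red, to the right) or lower (blue, to the left) at 25 nM for each list with at least 3 tested members, and dotted lines give the same for all genes tested, 2.53% and 0.764%. Globins, low-oxygen, heme, glycolysis and membrane lists reach far to the right, as does the granulocyte and macrophage list, which has 4 tested members and 2 of them higher.

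Smaller groups of higher genes came from stress and signalling lists. Of 15 tested immediate early genes 5 were higher and 0 lower, though the median was 0.05. Egr1, a zinc finger factor induced by growth signals, was at 24.7 to 25.9 CPM and then 33.2 and 31.3 CPM (0.35 ± 0.07, adjusted p = 2.17e-03), lost without 25 nM replicate 1 (adjusted p = 0.114). Klf6 was at 5.73 to 7.44 CPM and then 9.03 and 9.64 CPM (0.54 ± 0.12, adjusted p = 2.43e-03), lost without 25 nM replicate 2 (0.0839). This list had 2 called members without either 25 nM library and 3 without 0 nM replicate 1. Of 31 genes of the integrated stress response 5 were higher and 0 lower, led by Shmt2, the mitochondrial serine hydroxymethyltransferase, at 753 to 794 CPM and then 835 and 862 CPM (0.13 ± 0.03, adjusted p = 4.67e-04; 0.0806 without 25 nM replicate 2). Atf5, a transcription factor of that response, was at 12.8 to 15.4 CPM and then 18.5 and 18.1 CPM (0.42 ± 0.09, adjusted p = 1.80e-03; 0.0563 without 25 nM replicate 1). The count on the stress list fell to 1 without 25 nM replicate 1, 2 without replicate 2 and 3 without 0 nM replicate 2. Of 14 BTG family and cyclin-dependent kinase inhibitor genes 2 were higher. Beside Btg2 this was Cdkn1a, the p21 inhibitor, at 109 to 115 CPM and then 121 and 123 CPM (0.12 ± 0.04, adjusted p = 0.0486), which was lost when any library except 12.5 nM replicate 1 was left out (adjusted p = 0.0658 to 0.362).

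Other lists had fewer calls at this dose. By edgeR, 0 members were called among 40 ribosome biogenesis genes, 28 mitosis genes, 41 nuclear-encoded genes of oxidative phosphorylation, 15 p53 targets, 13 heat shock genes and 10 interferon genes. At an unadjusted p under 0.05 these lists held 3, 3, 4, 4, 4 and 1 genes in that order, and DESeq2 called 0 in each. Over all genes tested 2.53% were called higher and 0.764% lower, so 0 calls in lists this small is near the overall share. The number at an unadjusted p under 0.05 was 1398 of 10080 over all genes. Among 29 SR proteins and splicing factors 0 were called by edgeR and 0 by DESeq2, with 6 at an unadjusted p under 0.05 and 6 called lower under scaling by library size alone. Among 38 DNA replication genes 1, Cdc6, was higher (0.16 ± 0.04, adjusted p = 5.21e-03; 0.296 without 25 nM replicate 1), and among 72 cytosolic ribosomal protein genes 5 were higher and 0 lower, with changes of 0.09 to 0.13. Of these 72, 30 were at an unadjusted p under 0.05, against 1398 of the 10080 genes tested. In 36 of them both 25 nM libraries lay above all 4 baseline libraries, against 12.4% of all genes tested. The 5 calls became 2 with the trend on transcript length removed, 3 by DESeq2 and 0 with scaling by library size alone. The ribosomal count was 0 without 0 nM replicate 2, without 12.5 nM replicate 1 or without 25 nM replicate 2, and 10 without 25 nM replicate 1. Of 10 estrogen receptor target genes 1, Ctsd, was higher, at 318 to 337 CPM and then 346 and 365 CPM (0.11 ± 0.03, adjusted p = 0.0351), and it was lost without 25 nM replicate 2 (adjusted p = 0.598). Amino acid transporters gave 3 higher and 1 lower of 17. Slc7a8, a transporter of neutral amino acids, was the lower one, at 167 and 159 CPM at 0 nM, 141 and 140 CPM at 12.5 nM and 124 and 131 CPM at 25 nM (-0.25 ± 0.05, adjusted p = 2.12e-04), and Slc6a9, a glycine transporter, was at 19.0 to 21.4 CPM and then 24.3 and 24.5 CPM (0.30 ± 0.07, adjusted p = 6.04e-03). The 3 higher members were 1 without 25 nM replicate 1 and 0 without replicate 2. Lists on autophagy (4 of 26 higher), ubiquitin enzymes (2 of 14) and lipid handling (2 of 15 higher, 1 lower) added a few more. The autophagy count was 1 without 0 nM replicate 1 or 25 nM replicate 1 and 2 without 12.5 nM replicate 1, 12.5 nM replicate 2 or 25 nM replicate 2. The ubiquitin count was 1 without any 1 library except 12.5 nM replicate 2, and 0 with the baseline as 1 group of the 6 libraries. The higher lipid genes were 1 without any 1 library except 0 nM replicate 2, and the lower ones 0 without 0 nM replicate 2 or 25 nM replicate 2 and 2 without 12.5 nM replicate 2. In all, 86 of the 255 higher genes and 4 of the 77 lower genes stood on any of the 35 lists. These lists, chosen with earlier results of these data known, held 848 entries found among the 23410 symbols, with some genes on several lists. The share of all tested genes on any list was not counted, so the 86 and the 4 are a description.

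Markers of other cell types were at or near the floor, with some exceptions. The 6 megakaryocyte markers summed to 10.03 to 12.6 CPM at baseline and 15.97 to 16.9 CPM at 25 nM, with 2 of 6 at 0. Itgb3, an integrin of platelets, made up most of that sum, at 7.31 to 8.59 CPM and then 12.5 and 12.4 CPM (0.62 ± 0.09, adjusted p = 2.87e-06). The 6 granulocyte and macrophage markers summed to 0.43 to 1.01 CPM at baseline and 0.30 to 0.40 CPM at 25 nM, with 4 of 6 at 0. The part of these markers in the results was not tested. On a wider granulocyte list the genes called were the receptor subunits Csf2rb and Csf2rb2, the latter lost without 25 nM replicate 2 (adjusted p = 0.141). Csf2rb, the shared chain of the interleukin-3 and GM-CSF receptors, went from 3.56 and 2.40 CPM through 5.09 and 5.67 CPM to 8.85 and 10.7 CPM (1.28 ± 0.12, adjusted p = 1.60e-11). The 5 mast cell markers summed to 1.26 to 1.99 CPM at baseline and 1.61 to 1.62 CPM at 25 nM, and lymphocyte, fibroblast and endothelial markers to at most 0.135 CPM in any library.

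Fewer genes were lower than higher. Lgals9, galectin-9 (chromosome 11, 78962974 to 78984946, minus strand), had the firmest call among the 12 named lowest genes, at 327 and 324 CPM at 0 nM, 296 and 307 CPM at 12.5 nM and 244 and 243 CPM at 25 nM (-0.37 ± 0.04, adjusted p = 6.53e-10). Actr3b, an actin-related protein of the ARP2/3 complex, was at 56.0 and 56.1 CPM, 51.6 and 51.0 CPM, and 42.7 and 39.7 CPM (-0.38 ± 0.05, adjusted p = 1.82e-06). Tmem104, a transmembrane protein, was at 43.6 to 50.4 CPM and then 36.4 and 32.7 CPM (-0.42 ± 0.07, adjusted p = 1.01e-04). These 3 were separate from the baseline in both libraries and kept their calls under each alternative run, those that leave out a library included. Cd55, which protects cells from complement, had the largest fall among the 12, from 37.9 and 35.6 CPM through 28.7 and 33.7 CPM to 22.5 and 26.7 CPM (-0.46 ± 0.10, adjusted p = 7.61e-03), and was lost without 25 nM replicate 1 (adjusted p = 0.231). St8sia4, a polysialyltransferase, was at 29.6 to 32.5 CPM and then 22.5 and 23.3 CPM (-0.43 ± 0.09, adjusted p = 1.18e-03; 0.0589 without 25 nM replicate 1). Etv6, an ETS family repressor of blood progenitors and the 1 lower gene among 16 progenitor regulators, was at 34.0 to 35.1 CPM and then 29.5 and 25.6 CPM (-0.33 ± 0.08, adjusted p = 0.0119; 0.396 without 25 nM replicate 2).

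The remaining 6 of the 12, namely Hoxc4, a homeobox factor, Zfp407, a zinc finger protein, E2f7, a repressor of the E2F family, Hmgn5, a nucleosome-binding protein, Rfx7, a winged-helix factor, and Slc26a2, a sulfate transporter, fell by 0.33 to 0.39 on the log2 scale. Without 25 nM replicate 2 the adjusted p was 0.472 for Hoxc4, 0.217 for Zfp407, 0.473 for E2f7, 0.168 for Hmgn5 and 0.157 for Rfx7, and without 25 nM replicate 1 it was 0.319 for Slc26a2. Car1, a carbonic anhydrase of early erythroid cells, and Flna, filamin A, were picked after their values were seen. Car1 was at 2366 to 2514 CPM and then 2106 and 2119 CPM (-0.21 ± 0.03, adjusted p = 2.22e-07), and Flna was at 267 to 280 CPM and then 230 and 224 CPM (-0.27 ± 0.04, adjusted p = 7.71e-07). Lower genes had longer annotated transcripts: the median of the longest annotated transcript was 5315.5 bases among them, 3113 bases among higher genes and 3296.5 bases among all genes tested. With genes split by length into 5 equal bins, the bin of the longest had a median log2 fold change of -0.02 and held 39 of the lower genes, and the bin of the shortest had 0.03 and held 5. With the trend on length removed 271 genes were higher and 62 lower, of which 237 and 59 were also called without that step. A list of 27 chromatin and transcription regulators with long transcripts had 0 members called by edgeR and 0 by DESeq2, 7 at an unadjusted p under 0.05, and a median of -0.07.

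**Figure D4:**
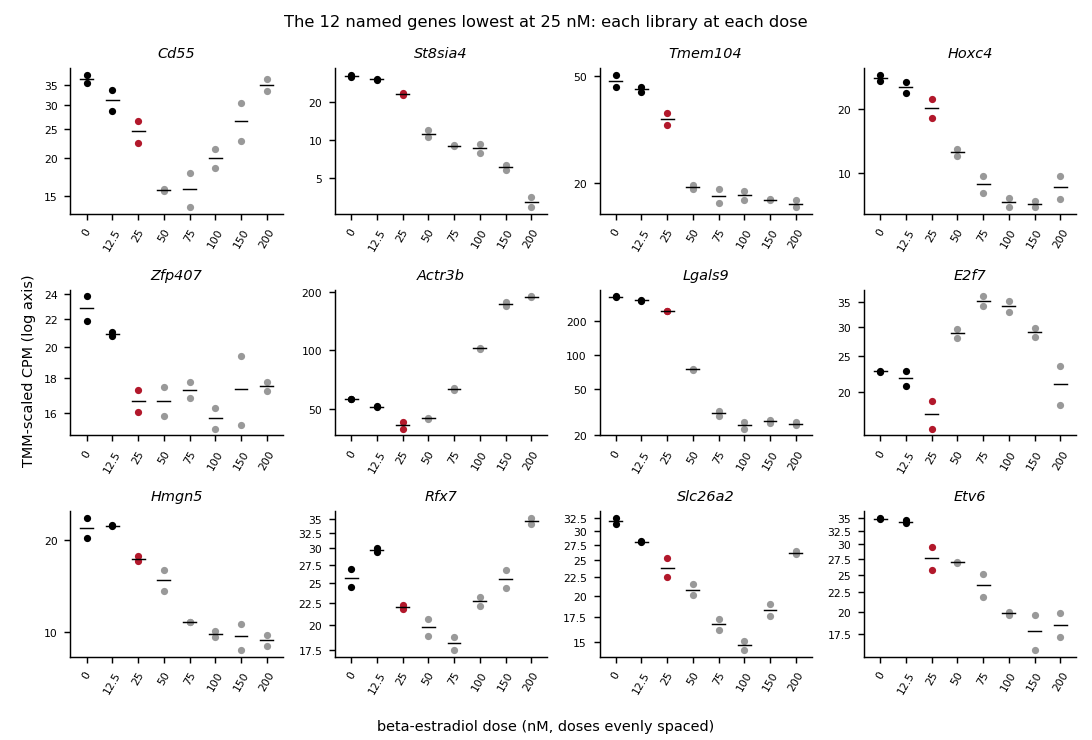
Each panel is 1 of the 12 named genes lowest at 25 nM, drawn as TMM-scaled CPM on a log axis against beta-estradiol dose in nM, doses evenly spaced, with single libraries as points (black at 0 and 12.5 nM, red at 25 nM, grey above) and means as bars. Lgals9 and St8sia4 continue down at higher doses, while Actr3b climbs to a mean of 188 CPM at 200 nM.

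Split by baseline dose, 25 nM differed from 0 nM in 302 higher and 103 lower genes (4.02% of those tested, 1.02% lower) and from 12.5 nM in 90 higher and 20 lower genes (1.09%, of which 0.893% higher and 0.198% lower). These comparisons share the 25 nM libraries. The baseline doses differed from each other in 28 genes higher and 23 lower at 12.5 nM (0.506%, of which 0.278% higher and 0.228% lower). A gene called against each of 0 and 12.5 nM, by the larger of the p-values, was higher in 72 cases and lower in 10. Among called genes that reached 20 CPM on average on the higher side, with libraries that did not overlap, the highest against 0 nM were Btg2, Hbb-b1 and Mboat2, at 1.11, 1.03 and 0.98, and the lowest Kcnq1ot1, Cd55 and Rbm26, an RNA-binding protein, at -0.89, -0.58 and -0.52. Above the same floor the highest against 12.5 nM were Bnip3, Alas2 and Ache, at 1.08, 0.78 and 0.74, and the lowest Rfx7, St8sia4 and Pank3, a pantothenate kinase, at -0.44, -0.39 and -0.38. Between the baseline doses the same rule gave Ddx26b, Ube2l6 and Ano1 as higher at 12.5 nM, by 0.43, 0.38 and 0.37, and Kcnq1ot1, Ash1l and Mll2 as lower, at -1.31, -0.42 and -0.40. Some called genes below that floor changed by more, such as Hbb-bh1, at 2.16 against 0 nM, and Ndufa4l2, at 1.47 against 12.5 nM. Ash1l and Mll2 encode histone methyltransferases.

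Kcnq1ot1, a long noncoding RNA transcribed antisense to Kcnq1, was lowest at 12.5 nM. It was at 56.7 and 63.4 CPM at 0 nM, 24.9 and 23.6 CPM at 12.5 nM and 32.4 and 32.6 CPM at 25 nM. It was lower at 25 nM than at 0 nM (adjusted p = 5.3e-12) and higher than at 12.5 nM (0.42, adjusted p = 3.3e-03), and against the pooled baseline it did not pass (-0.23 ± 0.07, adjusted p = 0.0605). Smart-seq2 libraries do not keep the strand, so its reads and those of Kcnq1 cannot be told apart. Leaving out a library moved these counts. Against 0 nM there were 151 to 210 higher and 39 to 67 lower genes, the fewest without 0 nM replicate 2. Against 12.5 nM there were 45 to 83 higher genes, the fewest without 12.5 nM replicate 1, and 3 to 30 lower genes, the fewest without 25 nM replicate 2. Between 12.5 and 0 nM there were 8 to 17 higher and 9 to 11 lower genes, the fewest higher ones without 0 nM replicate 2.

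The doses from 50 to 200 nM show where these early movers went. Those libraries were not in the contrast that called the genes, but they were in the fit that gave its spread, scaling and filter. Between 50 and 200 nM, 76.3% of all genes tested differed, 38.9% higher and 37.4% lower at 200 nM. Of the 255 genes higher at 25 nM, 190 were higher at 200 than at 50 nM (74.5%), 46 were lower (18%) and 19 were not called, with a median log2 fold change of 1.07 against 0.02 for all genes. Of the 77 genes lower at 25 nM, 39 were lower again (50.6%), 26 were higher (33.8%) and 12 were not called, with a median of -0.34. The 25 higher genes of the heme, globin and membrane lists had a median log2 level over baseline of 0.30 at 25 nM, 1.12 at 50 nM and 3.13 at 200 nM. The 21 higher genes of the glycolysis and low-oxygen lists had 0.25 at 25 nM, 0.11 at 50 nM, 0.01 at 75 nM and -0.28 at 200 nM, with single genes from -2.65 to 6.88 at 200 nM. Since the genes of both sets were chosen as higher at 25 nM, their 25 nM medians cannot be set against those of the other doses. Over all tested members, called or not, the 2 lists went different ways between 50 and 200 nM: of 20 low-oxygen genes 11 were higher and 7 lower at 200 nM (median 0.54), and of 23 glycolysis genes 8 were higher and 12 lower (median -0.28). Among higher genes that passed the same floor of 20 CPM, Pfkl turned back from 156 CPM at 50 nM to 47.0 CPM at 200 nM, Bnip3 from 24.0 to 13.0 CPM and Ddx26b from 51.6 to 42.8 CPM. At 200 nM Ddx26b was still above its mean of 35.4 CPM at 25 nM. Among lower genes Actr3b turned back from 44.9 to 188 CPM, Cd55 from 15.8 to 35.0 CPM and Rfx7 from 19.8 to 34.7 CPM.

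**Figure D5:**
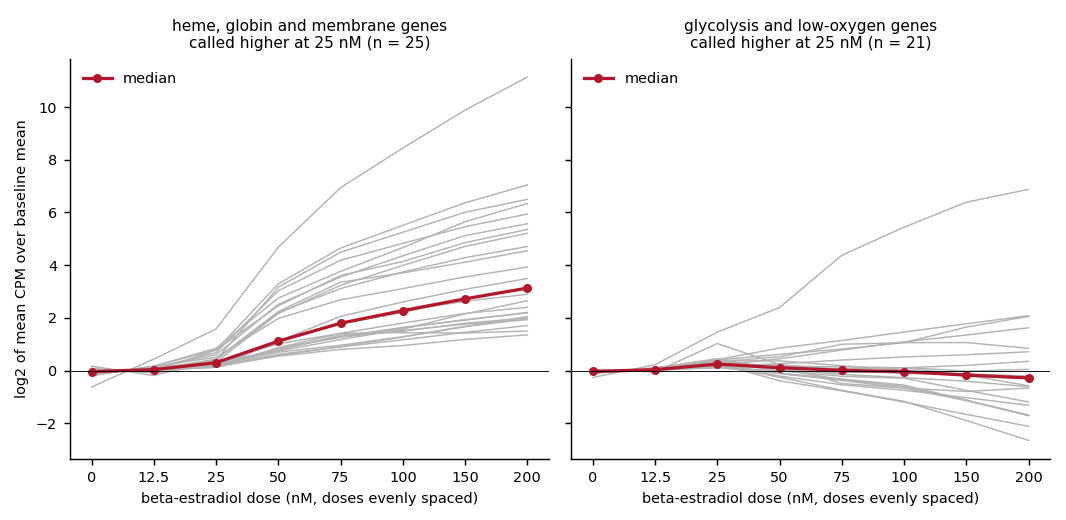
Thin lines give the log2 of each gene's mean CPM over its mean in the 4 baseline libraries at each beta-estradiol dose in nM, doses evenly spaced, for genes called higher at 25 nM, and red points and lines give the median. The 25 heme, globin and membrane genes climb to a median of 3.13 at 200 nM, while the 21 glycolysis and low-oxygen genes spread out at higher doses, from -2.65 to 6.88 at 200 nM. The genes were chosen as higher at 25 nM, so the height of the median at that dose is set in part by the choice.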

How the data were processed

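RNA of 16 G1E-ER4 libraries was sequenced after Smart-seq2, and 6 of them, at 0, 12.5 and 25 nM beta-estradiol with 2 libraries a dose, made this comparison. The authors deposited a table of raw read counts per gene symbol, whole numbers that differ in total between libraries. STAR, bcl2fastq and the mm10 build are named in the submitters' processing notes; the counting program, annotation, strand setting and versions, however, are not given in the sources read. Of 23410 symbols, 22981 had a single place in the GENCODE annotation used for positions and lengths.

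Counts were analysed in R 4.3.3 with edgeR 4.0.16. Genes passing filterByExpr by dose were scaled by TMM and fitted with a robust quasi-likelihood model over all 16 libraries. The contrast was 25 nM minus the average of 0 and 12.5 nM, with p-values adjusted by Benjamini-Hochberg. The fit was tested on simulated data with known folds. In these data the means at 0 and 12.5 nM were set equal and the spread was taken from the fit. They thus held no step within the baseline like that of Abcb10, and the simulation does not test that case. The fit called 18 of 50 genes changed 1.15-fold, 33 of 50 changed 1.25-fold, 45 of 50 changed 1.5-fold and 48 of 50 changed 2-fold. Among 9809 unchanged genes there were 13 false calls. Many changes as small as the median of the called genes would thus be missed. Depth was 14030743 to 15802510 counts a library, and amplified reads are not independent molecules. DESeq2 1.42.0, other scalings, filters, sample sets, a length correction and leaving out each library were alternatives.

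Named genes were the 12 highest and 12 lowest called genes with at least 20 CPM and libraries that did not overlap, up to 4 members of each of 35 lists by smallest p, Gata1, Gata2, and 3 a direction for the other comparisons; further called list members were named after their values were seen. Of the genes this rule gives, 1 is not reported here. The comparison, its members and the lists were chosen with earlier results of these data known. Lymphocyte and fibroblast lists had no tested member. Promoters were matched by symbol.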

Additional observations from a re-analysis of the deposited data

Results flagged for a closer look

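Among 83 genes tested for a library standing apart from the other 3 at 0 and 12.5 nM, 1 was found. E2f7 was at 20.8 CPM in 12.5 nM replicate 1 and at 22.6 to 22.8 CPM in the other 3 baseline libraries, a gap of 0.894 of their range, above Dixon's critical value for 4 samples. Chance alone would give about 1 in 20.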

How the results depend on the processing

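Under scaling by library size alone, 149 genes were higher and 189 lower at 25 nM against the pooled baseline, 174 and 225 against 0 nM, and 56 were higher against 12.5 nM; of the genes lower at 25 nM, 17 were higher at 200 than at 50 nM. DESeq2 gave 34 lower genes against the baseline, 49 against 0 nM, 11 against 12.5 nM and 13 at 12.5 against 0 nM. Fitting the 6 libraries alone gave 118 lower genes, and taking their baseline as 1 group gave 161 higher. Calls against each of 0 and 12.5 nM numbered 72 higher and 10 lower. Leaving out 1 library at a time gave 130 to 244 higher and 19 to 86 lower genes against the baseline, 151 to 210 and 39 to 67 against 0 nM, 45 to 83 and 3 to 30 against 12.5 nM, and 8 to 17 and 9 to 11 at 12.5 against 0 nM. The cause was not tested. With the replicate number as a block 254 genes were higher and 78 lower; correlations of same-numbered libraries were -0.013 to 0.022, so the numbers were not taken as pairs. Gata2 reversed to 0.0243 without 25 nM replicate 2, at an adjusted p of 0.977, and lay between -0.1095 and that value over the libraries left out. Of 65 named higher genes 28, and of 15 named lower genes 3, kept their call under each alternative run.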
